A study of Mus musculus with 8 samples.

Results

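The genes described here are 41 transcripts of neutrophil granules and neutrophil maturation, taken as a fixed list of gene symbols and read by name from a table of 53647 genes. They comprise 4 primary granule genes, 6 secondary granule genes, the transcription factor gene Cebpe and 4 genes of the phagocyte NADPH oxidase. The other 26 members are called late genes here, although the list does not assign them to a single stage. Each set is given apart from the others. All 41 were found and all 41 passed the filter on low counts. The libraries were made from polyA RNA of cells sorted from C57BL/6 mouse leukemia macrophage cultures. E-Mac denotes 4 libraries of macrophages that had shared the culture with mesenchymal stromal cells (MSC) for 12 h, and Mac denotes 4 libraries of macrophages cultured without MSC for the same 12 h. Every library is thus of leukemia-derived cells held in culture. The labels name neither the leukemia model nor the sort markers, and they do not say whether libraries came from separate mice or dishes, so the p-values reflect no more than the scatter among these samples, part of which may be technical.

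Neutrophils load their granules in a fixed order while they mature in the bone marrow. Promyelocytes transcribe the primary (azurophil) granule genes. Myelocytes and metamyelocytes transcribe the secondary (specific) granule genes, which depend on the transcription factor C/EBP epsilon. Band and segmented cells then transcribe receptors, gelatinase-type proteases and other genes of late maturation. The set called late genes here is not limited to genes of that last step. The NADPH oxidase, which makes superoxide in the phagosome, is shared by neutrophils, monocytes and macrophages, and so are lysozyme, calprotectin and formyl peptide receptors. In bulk RNA, fewer cells of a type and less RNA per cell cannot be told apart.

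Total counts were 13377046 to 15740846 per E-Mac library and 11646025 to 15556935 per Mac library, and the 41 genes took 2.14, 2.70, 2.24 and 2.47% of them in E-Mac 1 to 4, against 6.17, 5.98, 5.95 and 5.76% in Mac 1 to 4. The E-Mac libraries were not alike. E-Mac 2 and 4 lay far from E-Mac 1 and 3 (chi-square per degree of freedom 19.7 to 33.9 between the pairs, against 9.25 for E-Mac 2 with 4 and 4.89 for E-Mac 1 with 3), and they also carried more collagen transcript, with Col1a1 at 23.2, 141, 15.2 and 142 CPM in E-Mac 1 to 4, against 1.24, 1.42, 0.983 and 0.863 CPM in Mac 1 to 4. Of 14 stromal genes, to which Col1a1 belongs, 8 could be tested. Of these 5 rose (Sparc and 4 collagen genes) and 1, Fn1, fell (-2.15 ± 0.14, adjusted p = 4.48e-08), while Pdgfrb and Thy1 did not pass. Beside them, 29.5% of all genes tested rose and 28.8% fell. Without E-Mac 2 and 4, 9 stromal genes could be tested, of which 5 rose and 2 fell. The summed level of the 14, most of it Fn1, was 873 to 1044 CPM in E-Mac, against 3198 to 3791 CPM in Mac. The genes too low to test differed. Lum, Dcn and Lepr were at or near 0 in both groups, and Pdgfra reached 1.10 CPM in E-Mac 2. Postn had 0.468, 3.85, 0.135 and 7.98 CPM in E-Mac 1 to 4, against 0.123 to 0.373 CPM in Mac. Like Col1a1, it was highest in E-Mac 2 and 4. Cxcl12 went the other way, at 0 to 0.288 CPM in E-Mac, against 0.583 to 2.30 CPM in Mac. Values without E-Mac 2 and 4 are given for the 41 genes where a call changed or a value moved by over 1.5 times. For the other lists, counts of calls without these libraries are given where they changed. The part of stromal transcript in the results was not tested. Values called CPM are counts per 1000000 of a library's counts in tested genes, scaled by its TMM factor. Parentheses after a gene hold the log2 of its E-Mac to Mac ratio ± standard error (n = 4 each), with an adjusted p from edgeR's quasi-likelihood test over all 13412 genes tested and a call at an adjusted p under 0.05.

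Of the 41 genes, 25 fell in E-Mac, 9 rose and 7 did not pass. Over all genes tested, 28.8% fell and 29.5% rose, 58.3% in all, so a call by itself is common in this comparison. Of the calls 49.4% were lower in E-Mac, against 62.6% when libraries were scaled by size alone. For 25 members every E-Mac library lay below every Mac library (27.2% of all genes tested) and for 8 every E-Mac library lay above (26.7%). The median log2 fold change was -0.88 over the 41 genes and -0.003 over all genes tested. By set the medians were -0.66 for the 4 primary granule genes, -2.65 for the 6 secondary granule genes and 0.21 for the 4 oxidase genes. The median was -0.89 for the 26 late genes, which may span stages. The difference between sets was not tested. Without E-Mac 2 and 4 the medians were -0.31, -2.88, 0.08 and -1.15, in the same order.

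**Figure D1:**
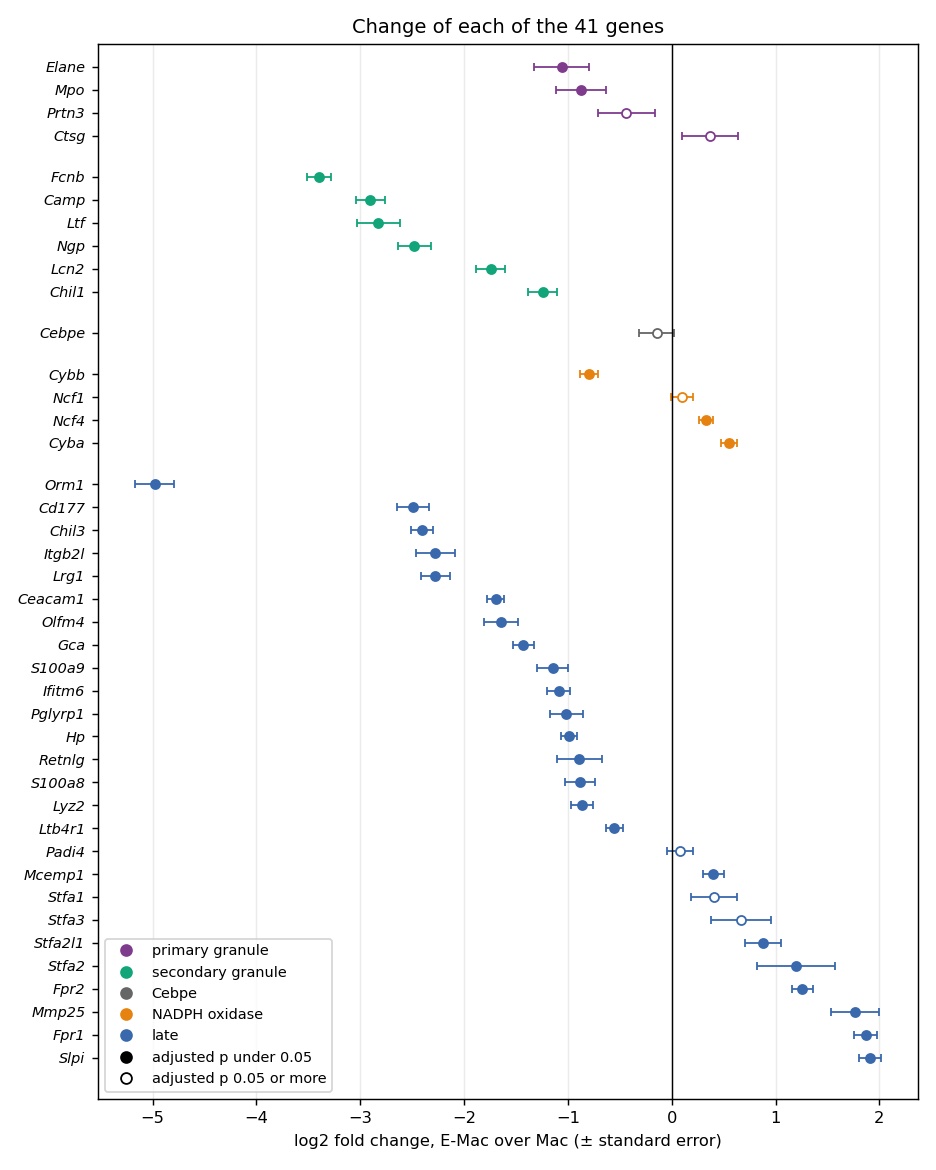
Log2 fold change, E-Mac over Mac, of each of the 41 genes with its standard error (4 libraries per group), ordered within each set. Filled points passed an adjusted p under 0.05. All 6 secondary granule genes lie between -3.40 and -1.24, the primary granule and oxidase genes lie nearer to 0, and the late genes run from -4.98 to 1.91.

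The primary granule genes encode Mpo, the peroxidase that makes hypochlorous acid, and the serine proteases Elane (neutrophil elastase), Prtn3 (proteinase 3) and Ctsg (cathepsin G). All 4 carried, in the 300 bases around their RefSeq start sites, the PU.1-type motif AGGAAGT or its reverse complement ACTTCCT. PU.1 is the myeloid transcription factor encoded by Spi1. The motif stood in 9.35% of the 32851 promoter windows of the same length, and the C/EBP-type motif described below stood in none of these 4. A match describes letters in a window and does not show binding. The windows of Mpo and Elane, which fell, and of Ctsg, which did not, are shown from 250 bases before to 50 bases after the start in RefSeq on GRCm38.p6, 5′ to 3′ on the gene's strand, with the motif in capitals.
Mpo, chr11:87793534-87793833, plus strand: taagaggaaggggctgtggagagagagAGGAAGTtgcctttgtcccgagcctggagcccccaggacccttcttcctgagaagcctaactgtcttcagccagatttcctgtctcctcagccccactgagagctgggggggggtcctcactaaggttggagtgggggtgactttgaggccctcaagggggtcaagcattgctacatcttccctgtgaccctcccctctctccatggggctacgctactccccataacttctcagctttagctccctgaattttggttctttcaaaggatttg
Elane, chr10:79886062-79886361, plus strand: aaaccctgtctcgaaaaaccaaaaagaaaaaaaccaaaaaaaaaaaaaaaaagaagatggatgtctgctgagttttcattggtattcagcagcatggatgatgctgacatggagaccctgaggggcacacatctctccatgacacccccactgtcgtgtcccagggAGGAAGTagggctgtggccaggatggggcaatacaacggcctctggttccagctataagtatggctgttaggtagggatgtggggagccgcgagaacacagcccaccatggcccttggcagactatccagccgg
Ctsg, chr14:56102525-56102824, minus strand: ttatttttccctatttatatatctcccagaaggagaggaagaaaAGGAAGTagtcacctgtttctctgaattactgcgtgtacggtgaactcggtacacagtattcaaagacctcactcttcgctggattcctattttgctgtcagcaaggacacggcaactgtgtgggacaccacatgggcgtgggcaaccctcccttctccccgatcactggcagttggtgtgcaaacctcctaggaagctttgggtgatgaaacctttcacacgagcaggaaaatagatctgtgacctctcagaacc

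Mpo stood at 113, 47.9, 104 and 78.4 CPM in E-Mac 1 to 4, against 167, 148, 133 and 181 CPM in Mac 1 to 4. Every E-Mac library lay below every Mac library, and E-Mac 2 was the lowest. Mpo fell (-0.87 ± 0.24, edgeR adjusted p = 0.0128). Leaving out E-Mac 4 ended the call (-0.83, adjusted p = 0.0701), as did dropping the filter on low counts (adjusted p = 0.0604). The value with E-Mac 2 and 4 left out was -0.53 (adjusted p = 0.00424). Elane, whose transcript lies 3072 bases from that of Prtn3 on chromosome 10, had 66.0, 27.9, 70.6 and 51.8 CPM in E-Mac 1 to 4, against 123, 102, 94.5 and 131 CPM in Mac 1 to 4. The groups did not overlap, and Elane fell (-1.06 ± 0.26, adjusted p = 0.00794). It kept its call without each library in turn, with adjusted p-values of 0.000193 to 0.0461.

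Prtn3 had 125, 49.8, 126 and 94.2 CPM in E-Mac 1 to 4, against 145, 114, 122 and 155 CPM in Mac 1 to 4. Here E-Mac 1 and 3 lay within the Mac range and E-Mac 2 and 4 below it, so the groups overlapped (-0.44 ± 0.27, adjusted p = 0.203). With E-Mac 2 and 4 dropped the value was -0.09 (adjusted p = 0.58). Part of its exons, 159 bases, also belongs to Plppr3 on the opposite strand, and reads from the overlap cannot be told apart without strand. Ctsg had 46.4, 17.9, 39.5 and 36.7 CPM in E-Mac 1 to 4, against 32.1, 21.5, 22.6 and 32.5 CPM in Mac 1 to 4. It was the primary granule gene with the highest E-Mac values relative to Mac: 3 E-Mac libraries lay above all Mac libraries, and E-Mac 2 lay below them (0.36 ± 0.27, adjusted p = 0.275). Without E-Mac 2 Ctsg was higher in E-Mac (0.60, adjusted p = 0.00537), and likewise when both E-Mac 2 and 4 were dropped (0.66, adjusted p = 0.0125). Per library the Ctsg counts were 0.410, 0.374, 0.380 and 0.468 per Mpo count in E-Mac 1 to 4, against 0.193, 0.145, 0.171 and 0.180 in Mac 1 to 4, and these ratios, which no scaling affects, did not overlap. The Elane ratio to Mpo was 0.584, 0.582, 0.680 and 0.661 in E-Mac, against 0.738, 0.691, 0.713 and 0.725 in Mac, also without overlap. The 4 primary granule genes thus did not keep one proportion to each other. Granulocyte-monocyte progenitors are the stage that precedes and overlaps primary granule synthesis. Of 10 markers of this stage 5 fell and 1 rose, beside 28.8% and 29.5% of all genes tested. Without E-Mac 2 and 4 the counts were 7 and 1. The summed level of the 10 was 92.7 to 122 CPM in E-Mac 1 to 4, against 183 to 207 CPM in Mac. The one that rose was Cd34, a stem and progenitor surface gene, named after its values were seen. All 10 proliferation markers fell, to a sum of 324 to 672 CPM in E-Mac, against 1678 to 1786 CPM in Mac, lowest in E-Mac 2, the library lowest in each primary granule gene. Their part in the primary granule values was not tested.

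**Figure D2:**
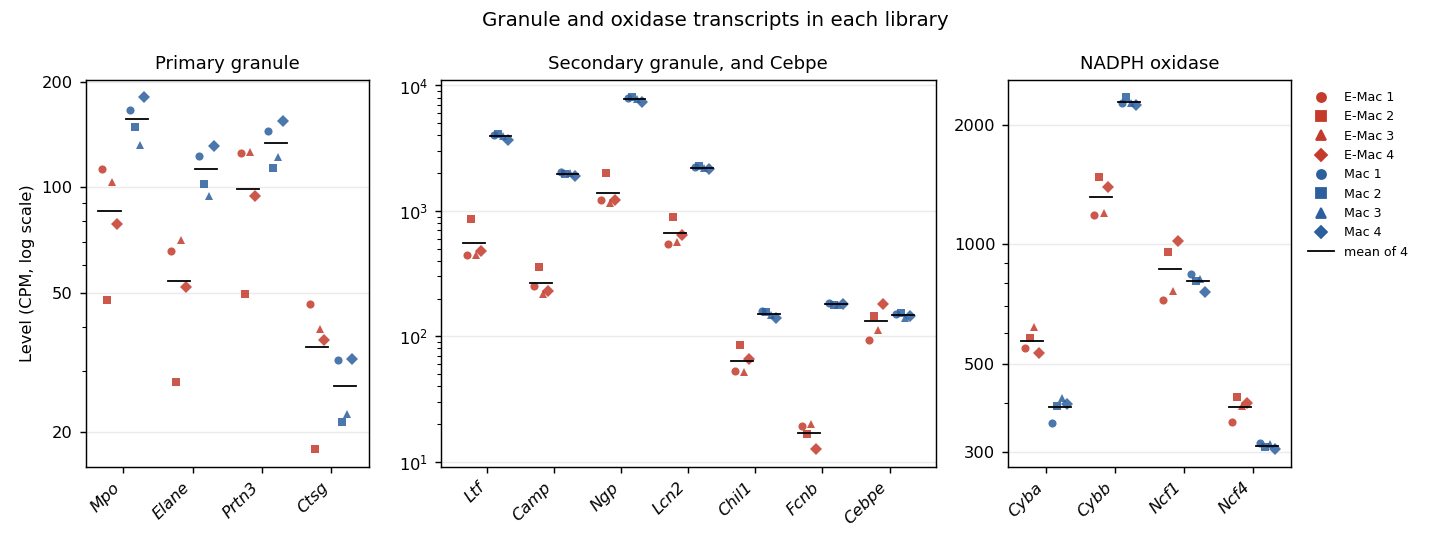
Level in CPM on a log axis of the primary granule genes, the secondary granule genes with Cebpe, and the NADPH oxidase genes, one point per library (marker shape gives the library number) and a line at the mean of 4. E-Mac 2 is the lowest point of each primary granule gene and the highest E-Mac point of Ltf, Camp, Ngp, Lcn2 and Chil1.

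The secondary granule genes fell together. They encode the iron-binding protein lactoferrin (Ltf), the cathelicidin antimicrobial peptide precursor (Camp), neutrophilic granule protein (Ngp), the siderophore-binding lipocalin (Lcn2), a chitinase-like lectin (Chil1) and the soluble lectin ficolin B (Fcnb). Camp, Ngp and Ltf lie in this order on mouse chromosome 9, 570129 and 596258 bases apart. All 6 fell, against 28.8% of all genes tested. In all 6 every E-Mac library lay below every Mac library, against 27.2% of all genes tested. Transcripts of other marrow lineages moved in both directions. All 6 erythroid genes tested fell, to a sum of 0.702 to 1.58 CPM in E-Mac, against 52.6 to 69.4 CPM in Mac. Hbb-bs, Hba-a1 and Hba-a2 were at 0 in every E-Mac library. Of 6 mast cell and basophil genes tested 5 fell (sum 20.6 to 55.6 CPM in E-Mac, against 119 to 162 CPM in Mac). Mcpt4, Tpsab1 and Tpsb2 were at 0 in both groups. Of 9 eosinophil genes 6 fell and 1 rose (sum 2218 to 3137 CPM in E-Mac, against 3091 to 3530 CPM in Mac). T and NK cell genes fell in 3 of 4 tested, and monocyte genes fell in 8 of 12 and rose in 3. B cell genes went the other way, with 4 of 5 tested higher and 1 lower, beside 29.5% of all genes tested that rose. Their sum was 14.2 to 28.0 CPM in E-Mac, against 15.6 to 18.1 CPM in Mac. Without E-Mac 2 and 4, 5 of 6 erythroid and 6 of 6 mast cell and basophil genes fell. Of the 9 eosinophil genes 8 then fell and 1 rose. In that setting 5 of 5 T and NK cell genes fell. Monocyte genes fell in 9 of 12 and rose in 3, and B cell genes rose in 2 of 5 and fell in 1. The part of these lineages in the secondary granule values was not tested. Of the 6 promoter windows 4 held the C/EBP-type motif TTNNGCAA or its reverse complement TTGCNNAA, against 10.8% of all windows, and 1 held the PU.1-type motif. Of 24 late genes with a window 4 held the C/EBP-type motif, Slpi, which rose, among them, and 8 the PU.1-type motif, and of 3 oxidase genes 0 held either. In Camp and Chil1, which fell as well, these letters are not in the window, and nothing follows from that about the factor. The windows of 3 genes with matches are shown, Ltf (lactoferrin), Ngp (the most abundant of the 6) and Fcnb (the most changed), with C/EBP-type matches in capitals (in Fcnb the third run of capitals is the PU.1-type match). No C/EBP-type match overlapped a PU.1-type one.
Ltf, chr9:111019042-111019341, plus strand: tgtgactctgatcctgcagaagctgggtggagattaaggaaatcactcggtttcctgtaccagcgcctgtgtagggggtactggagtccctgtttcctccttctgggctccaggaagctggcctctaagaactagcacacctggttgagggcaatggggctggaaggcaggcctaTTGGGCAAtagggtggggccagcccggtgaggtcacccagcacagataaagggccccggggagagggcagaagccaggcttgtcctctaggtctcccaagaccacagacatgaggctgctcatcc
Ngp, chr9:110419558-110419857, plus strand: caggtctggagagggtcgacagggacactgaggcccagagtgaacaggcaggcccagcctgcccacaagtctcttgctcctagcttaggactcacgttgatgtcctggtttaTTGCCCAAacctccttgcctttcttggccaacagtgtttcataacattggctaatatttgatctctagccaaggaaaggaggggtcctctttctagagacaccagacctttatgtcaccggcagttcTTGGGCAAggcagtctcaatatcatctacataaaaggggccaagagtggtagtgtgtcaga
Fcnb, chr2:28084829-28085128, minus strand: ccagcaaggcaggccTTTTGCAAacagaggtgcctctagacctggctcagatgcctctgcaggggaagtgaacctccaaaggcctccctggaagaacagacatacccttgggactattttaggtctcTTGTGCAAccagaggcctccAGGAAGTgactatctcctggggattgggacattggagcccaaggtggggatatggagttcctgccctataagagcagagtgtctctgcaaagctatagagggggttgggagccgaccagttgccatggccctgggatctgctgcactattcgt

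Ltf stood at 448, 856, 448 and 478 CPM in E-Mac 1 to 4, against 4019, 4128, 3970.4 and 3704 CPM in Mac 1 to 4. All E-Mac libraries were far below Mac, and E-Mac 2 was the highest of the 4. The fitted change of Ltf was 7.09-fold down (-2.83 ± 0.21, adjusted p = 8.01e-07). Camp had 253, 356, 218 and 229 CPM in E-Mac 1 to 4, against 2034, 1986, 1997 and 1894 CPM in Mac 1 to 4, a 7.50-fold decrease (-2.91 ± 0.14, adjusted p = 2.90e-09). Ngp, the most abundant of the 6, had 1230.5, 1988, 1145 and 1214 CPM in E-Mac 1 to 4, against 7878, 8045, 7787 and 7429.6 CPM in Mac 1 to 4 (-2.48 ± 0.16, adjusted p = 6.48e-08). For these 3 genes the 4 Mac libraries were nearly level with each other, and the spread lay in E-Mac.

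Fcnb had the largest change in the group, 10.6-fold down, at 19.3, 16.5, 19.8 and 12.5 CPM in E-Mac 1 to 4, against 184, 176, 178 and 181 CPM in Mac 1 to 4 (-3.40 ± 0.12, adjusted p = 8.15e-11). Unlike the other 5, Fcnb was not highest in E-Mac 2. Lcn2 had 542, 901, 561 and 644 CPM in E-Mac 1 to 4, against 2231, 2272, 2209.6 and 2150.2 CPM in Mac 1 to 4 (-1.74 ± 0.14, adjusted p = 3.61e-07). Chil1 changed least, with 53.2, 84.9, 51.8 and 65.8 CPM in E-Mac 1 to 4, against 159.8, 157, 149 and 139 CPM in Mac 1 to 4, a 2.37-fold decrease (-1.24 ± 0.14, adjusted p = 1.16e-05). Each of the 6 kept its direction and its call under all 20 alternative settings. Per kilobase of merged exon the order of mean levels in E-Mac was Ngp (1141 CPM per kilobase), Camp (348), Lcn2 (252), Ltf (162), Chil1 (22.8) and Fcnb (12.7). In Mac it was Ngp (6371 CPM per kilobase), Camp (2609), Ltf (1147), Lcn2 (845), Fcnb (134) and Chil1 (54.0). Ltf and Lcn2, and Fcnb and Chil1, thus changed places between the groups.

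Cebpe, the gene of the factor that secondary granule genes require, did not follow them. It had 93.5, 146, 113 and 179.6 CPM in E-Mac 1 to 4, against 150.3, 153, 141 and 144 CPM in Mac 1 to 4. E-Mac 4 was the highest of all 8 libraries and E-Mac 1 the lowest, so the groups overlapped (-0.14 ± 0.17, adjusted p = 0.487). Cebpe was lower in E-Mac when E-Mac 4 was dropped (-0.32, adjusted p = 0.0423) and when both E-Mac 2 and 4 were (-0.50, adjusted p = 5.41e-07). Among 10 other granulocyte differentiation genes 6 fell and 3 rose (median -0.47). Without E-Mac 2 and 4 the counts were 6 and 2. Cebpa, which encodes the C/EBP factor of the earlier granulocyte commitment step, fell (-1.42 ± 0.09, adjusted p = 1.78e-08), as did Gfi1, a repressor needed for neutrophil differentiation (-0.99 ± 0.10, adjusted p = 1.83e-06). Csf2rb, the shared receptor chain for GM-CSF, rose (1.63 ± 0.11, adjusted p = 4.25e-08). Of 15 tested genes listed as other granule genes 6 fell and 6 rose (median 0.11), beside 28.8% and 29.5% of all genes tested. Serpinb1a, an inhibitor of neutrophil serine proteases, fell (-2.64 ± 0.09, adjusted p = 5.37e-11) with Lbp, the lipopolysaccharide-binding protein (-1.80 ± 0.09, adjusted p = 3.43e-09), and Adam8, a membrane metalloprotease, rose (1.52 ± 0.08, adjusted p = 2.98e-09). These other granule genes thus moved in both directions, as did all genes tested.

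Within a library, counts of the 6 secondary granule genes per count of the 4 primary granule genes were 7.26, 29.3, 7.19 and 10.1 in E-Mac 1 to 4, against 35.4, 43.4, 43.9 and 31.0 in Mac 1 to 4. E-Mac 2 came close to Mac 4, and the other 3 E-Mac libraries lay far below all Mac libraries. The summed level of the 6 was 2444 to 4201 CPM in E-Mac, against 15500 to 16760 CPM in Mac, and that of the 4 primary genes was 143 to 351 CPM in E-Mac, against 372 to 499.5 CPM in Mac. In E-Mac 2 both parts of the ratio stood apart, with the lowest primary and the highest secondary sum of the 4 E-Mac libraries.

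**Figure D3:**
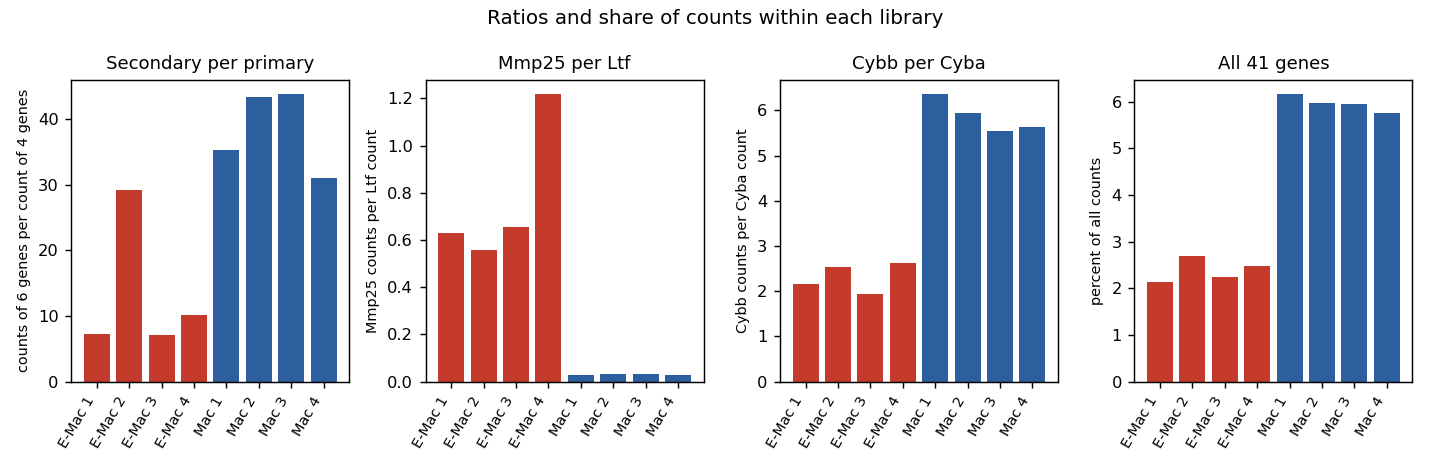
Counts of the 6 secondary per count of the 4 primary granule genes, Mmp25 per Ltf count, Cybb per Cyba count, and the percent of all counts held by the 41 genes, one bar per library with E-Mac in red and Mac in blue. E-Mac 2 reaches 29.3 secondary counts per primary count, close to the 31.0 of Mac 4, whereas Mmp25 per Ltf and Cybb per Cyba do not overlap between the groups. Mmp25 and Cyba rose and Ltf and Cybb fell, each without overlap, so these ratios had to differ.

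Of the 4 NADPH oxidase genes 1 fell and 2 rose, beside 28.8% and 29.5% of all genes tested. Cybb encodes the catalytic membrane subunit, Cyba its membrane partner, Ncf1 the organiser in the cytosol and Ncf4 another cytosolic subunit. Cybb fell, with 1184, 1474, 1198 and 1397 CPM in E-Mac 1 to 4, against 2262, 2342, 2272 and 2239 CPM in Mac 1 to 4 (-0.79 ± 0.09, adjusted p = 3.61e-06). Cyba rose, with 549.6, 580.4, 619 and 532 CPM in E-Mac 1 to 4, against 356, 393, 409.9 and 397 CPM in Mac 1 to 4 (0.55 ± 0.07, adjusted p = 2.88e-05). In both genes the groups did not overlap. Cybb counts per Cyba count were 2.15, 2.54, 1.94 and 2.62 in E-Mac 1 to 4, against 6.36, 5.95, 5.54 and 5.64 in Mac 1 to 4, so the transcripts of the 2 membrane subunits changed relative to each other whatever the scaling. Per kilobase of merged exon, mean levels in E-Mac were 549 CPM per kilobase for Cyba and 226 for Cybb, against 374 and 392 in Mac.

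Ncf4 rose by a small amount, with 358, 413, 392 and 400.3 CPM in E-Mac 1 to 4, against 316, 309, 316 and 305 CPM in Mac 1 to 4 (0.33 ± 0.07, adjusted p = 0.000813), and its groups did not overlap. Scaling by library size alone put the median of all genes at -0.15 and Ncf4 at 0.18 (adjusted p = 0.0249). Ncf1 had 723, 958, 765 and 1018 CPM in E-Mac 1 to 4, against 842, 811, 820.2 and 759 CPM in Mac 1 to 4. E-Mac 2 and 4 lay above the Mac range, E-Mac 3 within it and E-Mac 1 below it (0.10 ± 0.10, adjusted p = 0.433), and its sign turned with library size alone (-0.04) and without E-Mac 2 and 4 (-0.11), with no call in either. Part of the Ncf1 exons (408 bases) overlaps Gtf2ird2 on the opposite strand. Of 6 other genes of the oxidase and the respiratory burst that could be tested, 1 fell and 1 rose, and without E-Mac 2 and 4 the counts were 3 and 2. Hvcn1, the proton channel that sustains the burst, fell with overlapping groups (-0.37 ± 0.11, adjusted p = 0.0121, and -0.56 without those libraries), and the exchange factor gene Vav1 rose (0.28 ± 0.07, adjusted p = 0.00388). Macrophages also transcribe the oxidase. Over all genes tested 29.5% rose and 28.8% fell. Of 19 tested macrophage core markers 11 rose and 3 fell, or 14 and 3 without E-Mac 2 and 4. Their summed level was 5123 to 7148 CPM in E-Mac, against 2736 to 3291 CPM in Mac, with none of the 20 at 0 in a whole group, and its part in the oxidase values was not tested.

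Among the 26 late genes 16 fell, 7 rose and 3 did not pass, where 28.8% of all genes tested fell and 29.5% rose. The share that rose is near that background. The 3 calcium-binding protein genes fell. S100a8 and S100a9 encode the subunits of calprotectin, the main cytosolic protein of neutrophils. S100a9 had 3239.9, 5503, 3519.9 and 4696 CPM in E-Mac 1 to 4, against 9946, 9818, 9211 and 8528 CPM in Mac 1 to 4 (-1.15 ± 0.15, adjusted p = 2.78e-05), and S100a8 had 2286, 3650.2, 2456 and 3490.3 CPM in E-Mac 1 to 4, against 6041, 5382, 5484 and 5018 CPM in Mac 1 to 4 (-0.88 ± 0.14, adjusted p = 0.000183). In both, E-Mac 2 and 4 were the higher E-Mac libraries, and no E-Mac library reached Mac. S100a9 counts per S100a8 count were 1.42, 1.51, 1.43 and 1.34 in E-Mac, against 1.65, 1.82, 1.68 and 1.70 in Mac. The third gene, Gca (grancalcin), was less abundant and fell (-1.43 ± 0.10, adjusted p = 5.34e-08), and 20.4% of its exon bases overlap Kcnh7 on the opposite strand.

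Of the 9 genes of secreted proteins 8 fell and 1 rose, beside 28.8% and 29.5% of all genes tested. Orm1, the acute-phase protein orosomucoid, had the largest change of all 41 genes, with 0.779, 0.550, 0.808 and 1.01 CPM in E-Mac 1 to 4, against 29.1, 22.6, 26.6 and 21.8 CPM in Mac 1 to 4 (-4.98 ± 0.19, adjusted p = 1.51e-10). Its E-Mac values rest on 10, 8, 12 and 14 counts. Chil3, the chitinase-like protein also known as Ym1, had 707, 706, 663 and 513 CPM in E-Mac 1 to 4, against 3478, 3554, 3378 and 3283 CPM in Mac 1 to 4 (-2.40 ± 0.10, adjusted p = 6.25e-10). Lrg1, a leucine-rich glycoprotein of granules, had 29.4, 50.3, 30.8 and 38.7 CPM in E-Mac 1 to 4, against 176, 182, 182 and 183 CPM in Mac 1 to 4 (-2.28 ± 0.14, adjusted p = 8.69e-08). These 3 genes fell clearly below Mac in every E-Mac library.

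Lysozyme and the resistin-like gene Retnlg fell less. Lyz2, the most abundant of the 41 genes in CPM and transcribed by macrophages too, had 6633, 5871, 7066 and 5019.5 CPM in E-Mac 1 to 4, against 10698, 11307, 11262 and 11547 CPM in Mac 1 to 4 (-0.87 ± 0.10, adjusted p = 1.13e-05). Retnlg had 648, 1263, 810.3 and 1417 CPM in E-Mac 1 to 4, against 1936, 1916, 2019.8 and 1805 CPM in Mac 1 to 4 (-0.89 ± 0.22, adjusted p = 0.00587). E-Mac 2 and 4 held the most Retnlg among E-Mac libraries, and without them the value was -1.39 (adjusted p = 9.78e-11). The Retnlg call was lost with no filter (adjusted p = 0.0531). Olfm4, Pglyrp1 and Hp, which encode olfactomedin 4, a peptidoglycan recognition protein and haptoglobin, fell by 3.13, 2.02 and 1.99-fold with no overlap. Slpi, the secretory leukocyte protease inhibitor, which blocks elastase and cathepsin G, was the exception. It rose 3.76-fold, with 601, 548, 651 and 442 CPM in E-Mac 1 to 4, against 142, 156, 150.3 and 148 CPM in Mac 1 to 4 (1.91 ± 0.10, adjusted p = 5.44e-09).

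The 9 surface genes divided most evenly, 5 lower and 4 higher, with no overlap in any. Over all genes tested 28.8% fell and 29.5% rose. Every E-Mac library lay below every Mac library for 27.2% of all genes tested, and above for 26.7%. Cd177, a glycoprotein that presents proteinase 3 at the neutrophil surface, had 124, 205, 118 and 137 CPM in E-Mac 1 to 4, against 824, 836, 845 and 789 CPM in Mac 1 to 4 (-2.50 ± 0.15, adjusted p = 9.21e-08). Itgb2l, an integrin beta chain-like gene, had 44.4, 71.4, 33.7 and 48.2 CPM in E-Mac 1 to 4, against 247, 246, 244 and 222 CPM in Mac 1 to 4 (-2.28 ± 0.19, adjusted p = 3.71e-06). Ceacam1, an adhesion molecule, Ifitm6, an interferon-induced transmembrane family gene, and Ltb4r1, a leukotriene receptor, fell by 3.23, 2.13 and 1.47-fold.

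The other 4 surface genes rose. Mmp25, the membrane-anchored metalloproteinase of mature neutrophils, had 283, 478, 294 and 583 CPM in E-Mac 1 to 4, against 116, 125, 129 and 111 CPM in Mac 1 to 4 (1.77 ± 0.23, adjusted p = 0.000152). E-Mac 4 and 2 were the highest, and all 4 E-Mac libraries lay above Mac. Fpr1, the main receptor for formylated bacterial peptides, had 172, 249.6, 191 and 244 CPM in E-Mac 1 to 4, against 62.7, 55.3, 58.1 and 58.3 CPM in Mac 1 to 4 (1.87 ± 0.11, adjusted p = 2.05e-08). Its neighbour Fpr2 had 224, 315, 253 and 294 CPM in E-Mac 1 to 4, against 117, 118, 109.96 and 109 CPM in Mac 1 to 4 (1.26 ± 0.10, adjusted p = 1.51e-07). These 2 receptor genes lie 3883 bases apart on chromosome 17 and moved the same way. Mcemp1, a membrane protein gene of myeloid and mast cells, had 257, 372, 289 and 344 CPM in E-Mac 1 to 4, against 247, 234, 245 and 229.6 CPM in Mac 1 to 4 (0.40 ± 0.10, adjusted p = 0.00405), a small rise that was 0.26 with library size alone and 0.20 without E-Mac 2 and 4. Mmp25 counts per Ltf count were 0.631, 0.559, 0.656 and 1.22 in E-Mac 1 to 4, against 0.0289, 0.0303, 0.0324 and 0.0300 in Mac 1 to 4. Mmp25 rose and Ltf fell, each without overlap, so the separation of this ratio follows from theirs. It does not stand for the 26 late genes, of which 16 fell.

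**Figure D4:**
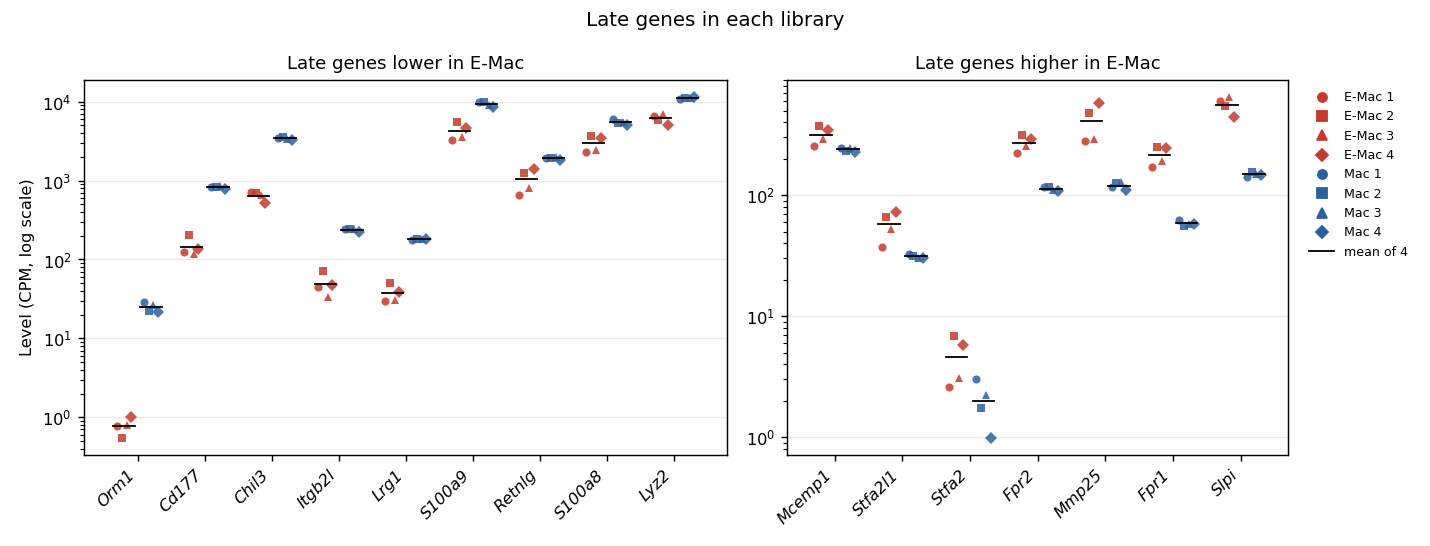
Level in CPM on a log axis of the late genes described by library, one point per library and a line at the mean of 4, with genes that fell on the left and genes that rose on the right. Stfa2 is the one gene plotted whose groups overlap.

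The stefin A genes, cysteine protease inhibitors encoded in a cluster of 299 kilobases on chromosome 16, included no gene that fell. Stfa2l1 rose, with 37.0, 66.6, 53.0 and 72.3 CPM in E-Mac 1 to 4, against 32.6, 31.4, 30.1 and 30.5 CPM in Mac 1 to 4 (0.88 ± 0.17, adjusted p = 0.000986), and was 0.54 without E-Mac 2 and 4. Stfa2 rose with overlapping groups, at 2.57, 6.88, 3.10 and 5.82 CPM in E-Mac 1 to 4, against 3.04, 1.75, 2.21 and 0.986 CPM in Mac 1 to 4 (1.20 ± 0.37, adjusted p = 0.0149), and lost its call without E-Mac 2 and 4 (0.51, adjusted p = 0.231). Stfa1 (0.41 ± 0.22, adjusted p = 0.131) and Stfa3 (0.67 ± 0.29, adjusted p = 0.0633) did not pass, although both were higher in E-Mac without E-Mac 1 (adjusted p = 0.0402 and 0.0291). With E-Mac 2 and 4 dropped Stfa1 was 0.03 (adjusted p = 0.928) and Stfa3 was 0.38 (adjusted p = 0.419). In Gm5483, another gene listed with the stefin A family, the level rose as well (0.85 ± 0.15, adjusted p = 0.000338, and 0.56 without E-Mac 2 and 4). BC100530, the only other gene of that list that could be tested, had a negative value and did not pass (-0.37 ± 0.36, adjusted p = 0.398). Padi4, the enzyme that citrullinates histones in neutrophil extracellular traps, had 286, 421, 294 and 431 CPM in E-Mac 1 to 4, against 351, 342, 333 and 329.9 CPM in Mac 1 to 4, with E-Mac 2 and 4 above Mac and E-Mac 1 and 3 below it (0.08 ± 0.13, adjusted p = 0.624). Its sign turned with library size alone (-0.07) and upper-quartile factors (-0.02), and without E-Mac 2 and 4 it was lower in E-Mac (-0.22, adjusted p = 0.00114).

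Of 21 other late neutrophil genes tested 9 fell and 7 rose (median -0.29), beside 28.8% and 29.5% of all genes tested. Without E-Mac 2 and 4, 12 fell and 6 rose. The lectin receptor genes Clec4d (2.77 ± 0.08, adjusted p = 2.15e-11) and Clec4e (1.63 ± 0.08, adjusted p = 3.10e-09) rose, and both are also made by macrophages. Wfdc21, a small secreted protein gene, fell (-1.99 ± 0.11, adjusted p = 4.79e-09). Of 6 defining neutrophil markers, Retnlg among them, 3 fell and 2 rose, and none was at 0 in any group. The summed level of the 6 was 3358, 5518, 3717 and 5385 CPM in E-Mac 1 to 4, against 4757 to 5153 CPM in Mac. E-Mac 1 and 3 thus lay below the Mac range, and E-Mac 2 and 4 lay above it. Ly6g, the surface antigen of mouse neutrophils, fell (-0.92 ± 0.14, adjusted p = 9.20e-05). The granule collagenase gene Mmp8 had 742, 922, 724 and 761 CPM in E-Mac 1 to 4, against 781, 736, 703 and 706 CPM in Mac 1 to 4 and did not pass (0.11 ± 0.09, adjusted p = 0.307). The gelatinase gene Mmp9 (0.56 ± 0.18, adjusted p = 0.0208) and the chemokine receptor gene Cxcr2 (0.58 ± 0.18, adjusted p = 0.0197) rose with overlapping groups, and both were highest in E-Mac 2 and 4. Without those libraries Mmp9 was 0.14 (adjusted p = 0.0354) and Cxcr2 was 0.17 (adjusted p = 0.0287). Mmp8 was then 0.01 (adjusted p = 0.879). Neutrophil-defining transcripts were thus present in all 8 libraries of cells labelled macrophages.

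Some of these genes share sequence with relatives, and the sources used here do not say how such reads were counted. Of 41 members, 8 shared over 10% of their 50-base words with transcripts of another gene in GENCODE M21: Fpr2 (31.5%), Ceacam1 (30.4%), Chil3 (26.9%), Stfa2l1 (24.6%), Stfa1 (22.5%), Orm1 (20.4%), Stfa2 (15.9%) and Lyz2 (15.4%). None of the other 33 exceeded 5.51%, and the 6 secondary granule genes shared none. The percentages count shared words and do not measure the uncertainty of a value, which also depends on the counts of the relative. Orm2, the relative of Orm1, held 78 counts in all E-Mac libraries together and 95 in Mac, where Orm1 had 8 to 14 counts per E-Mac library. Lyz1 held 416 and 1676, where Lyz2 had 69833 to 104919 counts per E-Mac library. On mm10 Mpo lies on chromosome 11, 87793581 to 87804413, Ltf on chromosome 9, 111019271 to 111042767, Ngp on chromosome 9, 110419747 to 110423012, Fcnb on chromosome 2, 28076378 to 28084885 and Mmp25 on chromosome 17, 23628311 to 23645277, all protein coding.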

How the data were processed

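The deposited data are raw read counts, a single table of gene symbols by libraries. Per the submitters' processing notes, featureCounts of Subread, HISAT2, bcl2fastq and DESeq2 are named with mm10, without their versions. The annotation, the strand setting and the handling of multi-mapped reads were not given in the sources here. Of 53673 names, 26 shaped like dates (0.134 to 0.160% of a library's counts) were dropped, and 37 mitochondrial genes held 0 counts. Replicates were compared in pairs and no pair was as close as sampling noise (lowest chi-square to degrees of freedom ratio 4.85).

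All genes were fitted at once with edgeR 4.0.16 in R 4.3.3 (filterByExpr with minimum count 10 and minimum total 15, TMM factors, robust quasi-likelihood fit of the group, Benjamini-Hochberg over 13412 genes). The standard error is the log2 fold change divided by the square root of F. The code was tested on simulated data with 13209 genes in the fit. It recovered 47.4% of 76 genes changed 1.5-fold, 77.8% of 54 changed 2-fold and 91.4% of 70 changed 4-fold. It also called 15 unchanged genes. A far smaller share of genes was changed in the simulation than the 58.3% called in the data, so these rates do not carry over to it. Exon lengths, positions and 50-base words came from GENCODE M21 (41 of 41 symbols matched). Promoter windows came from RefSeq on GRCm38.p6 (37 of 41). Alternatives were RLE, upper-quartile and no factors, no filter, 10 CPM in 4 libraries, DESeq2 1.42.0, limma-voom (limma 3.58.1), a replicate block, no robust option, an adjusted p under 0.01, a fold of 1.5, each library left out, and E-Mac 2 and 4 left out. For genes of other lists that last setting was chosen after seeing the data.

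The members, lists and tests were chosen with earlier results of these data known, and the promoter search was added after the expression values were seen. Statistics by library are given for each primary, secondary and oxidase gene and Cebpe, and for the late genes that were most abundant (5), changed most (5) or rose. Of each other pathway list up to 3 genes with the smallest adjusted p are named. Mmp8, Mmp9, Cxcr2, Ly6g, Cd34 and the stromal and erythroid genes, and late genes given by fold only, stand outside that rule.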

Additional observations from a re-analysis of the deposited data

Results flagged for a closer look

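In each group of 4 libraries the library farthest from the rest was compared with the others by Dixon's ratio of gap to range. Of 102 groups of 4 examined, 6 (5.88%) exceeded the critical value for 4 samples, and chance alone flags about 1 in 20. E-Mac 2 stood above the other E-Mac libraries for Ltf (856 CPM, against 448 to 478), for Ngp (1988 CPM, against 1145 to 1230.5) and for the sum of the 6 secondary granule genes (4201 CPM, against 2444 to 2644), which holds both genes. The other 3 concern small differences within Mac. Lrg1 was 176 CPM in Mac 1, against 182 to 183 in Mac 2 to 4. Itgb2l was 222 CPM in Mac 4, against 244 to 247 in the rest, and the summed surface genes, which include it, were 2312 CPM in Mac 4, against 2401 to 2419. No call on Ltf, Ngp, Lrg1 or Itgb2l was lost without the library that stood apart.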

How the results depend on the processing

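Of the 41 genes, 25 kept their direction and their side of the threshold under every alternative run for them, and 2 (Ncf1 and Padi4, neither called) turned direction. All 6 secondary granule genes stayed lower under each alternative. With single libraries left out, calls over all genes ranged over 7233 to 7986 (3525 to 3927 lower, 3708 to 4059 higher), 1 to 3 primary granule genes (1 to 2 lower, 0 to 1 higher), 1 oxidase gene lower with 2 higher, and 23 to 25 late genes (16 lower, 7 to 9 higher). One primary granule gene was called, lower in E-Mac, with no filter and at an adjusted p under 0.01. With E-Mac 2 and 4 dropped, 1 primary granule gene (Ctsg) was called higher. Against a fold of 1.5, 2968 of all genes were called (1478 lower, 1490 higher), with 0 primary granule genes, 1 oxidase gene (0 higher) and 4 late genes higher; that test asks for a larger change. Padi4 turned to -0.0156 with upper-quartile factors, -0.066 with library size only, -0.219 with both E-Mac 2 and 4 dropped, and ranged over -0.0169 to 0.178 with single libraries left out, negative without E-Mac 4. Ncf1 turned to -0.0438 with library size only and -0.111 with E-Mac 2 and 4 dropped; the cause was not tested. With library size only, 62.6% of calls were lower in E-Mac, against 49.4% with TMM.

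The replicate numbers did not pair the libraries. Deviations of same-numbered libraries correlated at -0.16 to 0.0856 over 4 pairs, and 1 of 4 E-Mac libraries correlated best with its own number. With the replicate block 7458 genes were called, against 7814 without it, and Prtn3 was called lower (-0.51, adjusted p = 0.0314). Depth limits mainly Orm1, with 8 to 14 counts per E-Mac library, and Stfa1, Stfa2 and Stfa3, with 16 to 111 counts per library.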
